A study of Mus musculus with 8 samples.

Results

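The ERK feedback genes described here are 10 genes, Dusp4, Dusp6, Spry1, Spry2, Spry4, Spred1, Spred2, Etv4, Etv5 and Phlda1, which were chosen by name as a readout of signalling through the kinase ERK. The choice was made with earlier results of these data known. Counts of these genes set beside the share of all genes are therefore a description. All 10 of 10 were matched by their GENCODE symbol to an identifier among the 37620 genes in the count files, and all 10 passed the filter on low counts. Their RNA was followed in 8 mouse RNA-seq libraries, of which 6 came from cells cultured with PD0325901, an inhibitor of MEK. MEK is the kinase that activates ERK.

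In 5 of the libraries, cells of the mouse embryonic stem cell (mESC) line R1 were kept without feeder cells in medium with serum and with 1 µM PD0325901 and 3 µM CHIR99021, an inhibitor of GSK3. This pair is called 2i, and 1 library was taken from it on day 5. Adding 2.0 µM of a JAK inhibitor gives 2iJ, with 1 library on day 5. Adding also 10 ng/ml BMP4 and 10 µM ALK5 inhibitor II, which blocks the receptor kinase of Activin, Nodal and TGF-β signals, gives 2iJ+B-A, with 1 library each on days 2, 5 and 11. A further library on day 2 of 2iJ+B-A came from a mESC line with a GFP reporter of Cdx2, a trophectoderm transcription factor, and held sorted GFP-positive cells. The remaining 2 libraries were mesoderm progenitors made from R1 embryoid bodies on days 3 and 4, in a medium for which the study lists BMP4, Activin A and Wnt3a but neither serum nor PD0325901. The day 4 cells had also received IWP-2, an inhibitor of Wnt secretion, a day earlier. PD0325901 was thus present in all 6 mESC libraries, and in the comparison with mesoderm progenitors the inhibitor, medium, cytokines, culture form and cell type cannot be told apart. The sample codes of the labels follow the same division into mesoderm, sorted and unsorted mESC libraries. The study corrected its expression values for experiments run on different days, which these counts were not. All 8 titles carry the same mark, (II), and the labels give no experiment day for a library, so an experiment batch that followed the groups cannot be told apart from them either.

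FGFs and other ligands bind receptor tyrosine kinases, which act through Ras, Raf and MEK to activate ERK. Active ERK raises transcription of a set of genes whose products damp the same chain, so their RNA is widely used to read ERK activity. In mESCs, Fgf4 made by the cells themselves keeps ERK active and favours exit from the naive state, and the MEK inhibitor of 2i blocks this step.

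Counts assigned to genes on the sense strand numbered from 19810855 in the sorted library to between 24532587 and 31453888 in the others. Levels are given as CPM, counts scaled to that total, and 3 counts, the limit that a count of 0 allows, equal between 0.0954 and 0.151 CPM. Intervals and limits cover counting error only. The summed level of 6 mesoderm markers was 1540 and 582 CPM in the mesoderm progenitors on days 3 and 4, and between 14.2 and 58.7 CPM in the R1 libraries with PD0325901, which are called MEK-inhibited R1 cells below. All 6 of these markers were higher in mesoderm progenitors as a group, but the 2 days differed. T, Mesp1, Mixl1 and Eomes were at 547, 181, 205 and 393 CPM on day 3. On day 4 they were at 6.30, 6.36, 2.10 and 22.2 CPM. Kdr went from 67.8 to 305 CPM and Pdgfra from 145 to 240 CPM. The 6 pluripotency markers summed to 900 and 83.9 CPM in mesoderm progenitors, to between 2846 and 4070 CPM in MEK-inhibited R1 cells and to 2010 CPM in the sorted cells. Of these markers, Pou5f1 alone was at 701 and 35.4 CPM in mesoderm progenitors on days 3 and 4. The sum of 4 endoderm markers ranged from 2.22 to 237 CPM over the libraries and that of the 3 measured neuroectoderm markers from 3.49 to 72.5 CPM. The sorted library stood apart in having 29.7% of its read pairs unmapped, against 2.17% to 3.85% in the others. Rows that name no gene, which include unmapped pairs, held 54.5% of its read pairs, against 19.9% to 26.1% in the others.

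In mesoderm progenitors, 8 of the 10 feedback genes were higher than in MEK-inhibited R1 cells and 1, Etv5, was lower. Spred2 did not pass the test. Of all 16961 genes tested, 15.7% were higher and 16.4% lower in the same comparison. The median log2 difference was 3.33 over the 10 feedback genes and 0.01 over all genes tested, where a log2 difference of 1 is a 2-fold change. The test was that of edgeR at an adjusted p of 0.05, with mesoderm progenitors set against the average of 2i, 2iJ and 2iJ+B-A, each group weighted equally. The 2 mesoderm libraries lay above all 5 MEK-inhibited R1 libraries for 8 of the 10 genes, as they did for 22.9% of all genes, and below them for 1 of the 10, as for 25.7% of all genes. The number of feedback genes called higher was 8 without day 2 of 2iJ+B-A, 5 without its day 5 and 7 without its day 11. Of all genes, 2266 of 16888, 1766 of 16732 and 2124 of 16732 were called higher in these fits. Without the day 3 or the day 4 mesoderm library, which leaves 1 in that group, 9 of the 10 log2 differences were above 0 and 1 was below, as with both. With the sorted cells included, the 2 mesoderm libraries lay above all 6 libraries with PD0325901 for 6 of the 10, against 19.3% of all genes. These are bulk libraries, in which fewer cells with the RNA and less RNA per cell cannot be told apart.

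**Figure D1:**
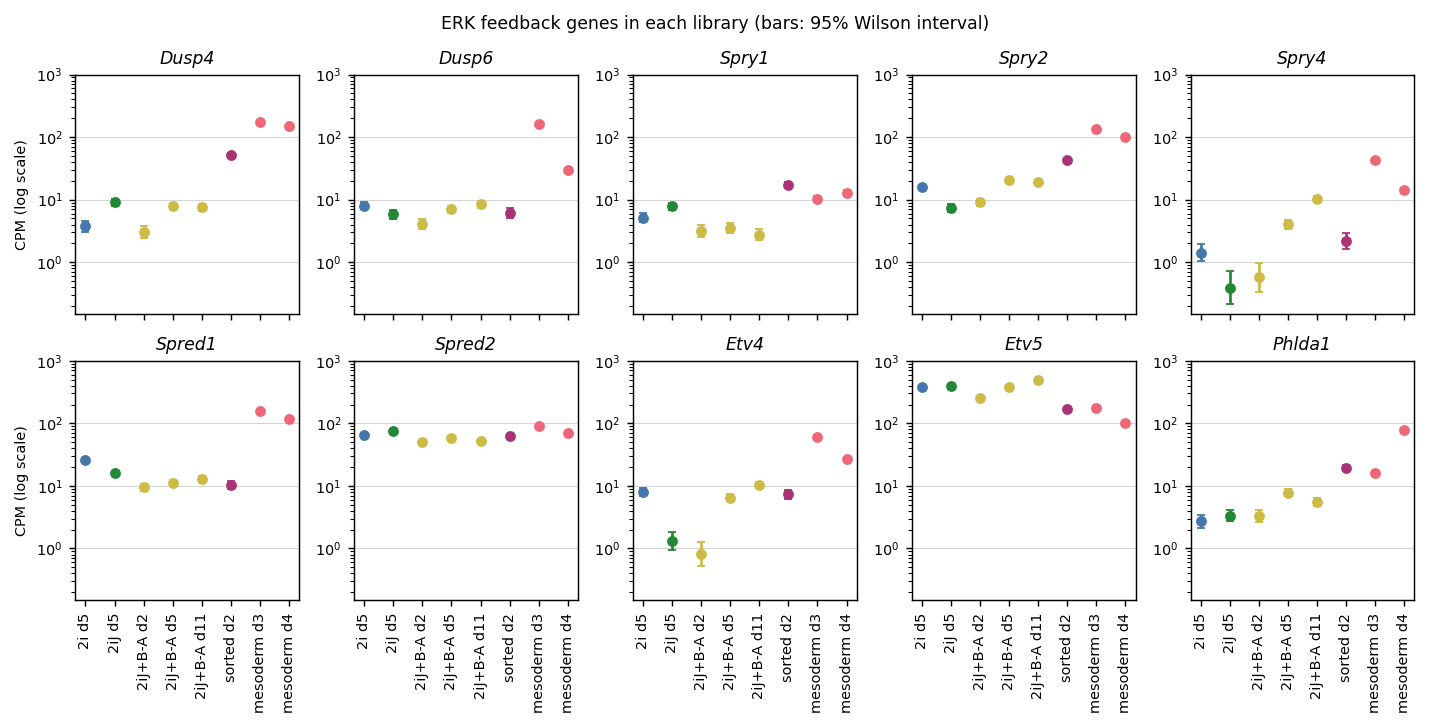
Each panel plots 1 ERK feedback gene, with its level in CPM on a log axis in each of 8 libraries (d, day; sorted, GFP-positive cells of 2iJ+B-A; mesoderm, mesoderm progenitors; bars, 95% Wilson interval). Mesoderm points lie above the 5 MEK-inhibited R1 points in 8 panels, overlap with them for Spred2 and lie below them for Etv5.

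Dusp4 and Dusp6 encode phosphatases that remove the activating phosphates from ERK. Dusp4 (ENSMUSG00000031530, NCBIM37 chromosome 8, 35870351 to 35882948, plus strand) was at 176 and 151 CPM in mesoderm progenitors on days 3 and 4, at 3.73 CPM in 2i, at 9.07 CPM in 2iJ, at 3.06, 7.88 and 7.52 CPM in 2iJ+B-A on days 2, 5 and 11, and at 52.1 CPM in the sorted cells. Both mesoderm libraries were far above all others, and the sorted library stood between them and the R1 libraries. The means were 164 ± 18.0 CPM in mesoderm progenitors (SD, n = 2) and 6.25 ± 2.68 CPM in MEK-inhibited R1 cells (SD, n = 5). This gave a log2 difference of 4.75 ± 0.39 (SE), the largest of the 10, with an adjusted p of 0.0013.

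Dusp6 (ENSMUSG00000019960, chromosome 10, 98725865 to 98730122, plus strand) acts on ERK in the cytoplasm. It was at 159 and 30.2 CPM in mesoderm progenitors on days 3 and 4, at 7.96 CPM in 2i, at 5.84 CPM in 2iJ, at 4.08, 7.06 and 8.43 CPM in 2iJ+B-A on days 2, 5 and 11, and at 6.06 CPM in the sorted cells. All 6 libraries with PD0325901 were low, the 2i, 2iJ and sorted values fell within the range of the 3 2iJ+B-A values, and both mesoderm libraries stood above them although they differed widely from each other. Dusp6 had a log2 difference of 3.77 ± 0.65 (SE), with an adjusted p of 0.0084. It was 2.19 without the day 3 mesoderm library (adjusted p = 0.012) and 4.56 without the day 4 mesoderm library (adjusted p = 0.0016).

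The Sprouty proteins, encoded by the Spry genes, block the chain between the receptor and Raf. Spry2 (ENSMUSG00000022114, chromosome 14, 106291166 to 106296036, minus strand) was at 136 and 102 CPM in mesoderm progenitors on days 3 and 4, at 15.8 CPM in 2i, at 7.36 CPM in 2iJ, at 9.09, 20.5 and 19.3 CPM in 2iJ+B-A on days 2, 5 and 11, and at 42.7 CPM in the sorted cells. The mesoderm libraries were highest and the sorted library was next. Its log2 difference between mesoderm progenitors and MEK-inhibited R1 cells was 3.23 ± 0.34 (SE), with an adjusted p of 0.0024.

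Spry4 (ENSMUSG00000024427, chromosome 18, 38745922 to 38760922, minus strand) was at 42.7 and 14.1 CPM in mesoderm progenitors on days 3 and 4, at 1.42 CPM in 2i, at 0.389 CPM in 2iJ, at 0.571, 4.04 and 10.3 CPM in 2iJ+B-A on days 2, 5 and 11, and at 2.17 CPM in the sorted cells. Only 10 and 14 counts lay behind the values in 2iJ and in 2iJ+B-A on day 2, and the day 11 value came close to that of the day 4 mesoderm progenitors without overlapping it. For Spry4 the log2 difference was 4.29 ± 1.05 (SE), with an adjusted p of 0.025. This call did not hold without the day 3 mesoderm library (log2 difference 3.34, adjusted p = 0.065) or without day 5 of 2iJ+B-A (adjusted p = 0.051). With the 5 R1 libraries pooled as 1 group, the log2 difference was 3.08 (adjusted p = 0.055).

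Spry1 (ENSMUSG00000037211, chromosome 3, 37538869 to 37543520, plus strand) was at 10.2 and 12.8 CPM in mesoderm progenitors on days 3 and 4, at 5.12 CPM in 2i, at 7.82 CPM in 2iJ, at 3.18, 3.50 and 2.77 CPM in 2iJ+B-A on days 2, 5 and 11, and at 17.3 CPM in the sorted cells. The sorted library was the highest of all, and 2i and 2iJ were both above the narrow range of 2iJ+B-A. The log2 difference between mesoderm progenitors and MEK-inhibited R1 cells was 1.16 ± 0.29 (SE), the smallest of the 8 that rose, with an adjusted p of 0.027. It did not pass without the day 4 mesoderm library (adjusted p = 0.082), without day 5 or day 11 of 2iJ+B-A (0.065 and 0.052), or with the sorted cells added to the MEK-inhibited side (0.093).

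Spred1 and Spred2 encode Sprouty-related proteins that restrain Ras and Raf, Spred1 by bringing the Ras inhibitor neurofibromin to the membrane. Spred1 (ENSMUSG00000027351, chromosome 2, 116947110 to 117008015, plus strand) was at 160 and 119 CPM in mesoderm progenitors on days 3 and 4, at 25.8 CPM in 2i, at 15.9 CPM in 2iJ, at 9.54, 11.3 and 12.9 CPM in 2iJ+B-A on days 2, 5 and 11, and at 10.3 CPM in the sorted cells. The mesoderm libraries were well apart from the rest, and 2i and 2iJ lay above the range of 2iJ+B-A. The log2 difference was 3.03 ± 0.21 (SE), with the lowest adjusted p of the 10 genes, 0.00096.

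Spred2 (ENSMUSG00000045671, chromosome 11, 19824378 to 19924029, plus strand) was at 91.4 and 70.4 CPM in mesoderm progenitors on days 3 and 4, at 65.5 CPM in 2i, at 75.5 CPM in 2iJ, at 50.1, 59.2 and 52.9 CPM in 2iJ+B-A on days 2, 5 and 11, and at 61.6 CPM in the sorted cells. The groups overlapped, as the 2iJ library lay above the day 4 mesoderm library, and the whole range over 8 libraries was narrow beside that of the other genes. Spred2 differed by 0.29 ± 0.17 (SE) on the log2 scale, with an adjusted p of 0.22.

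Phlda1 encodes a pleckstrin-homology-domain protein whose transcription follows ERK. Phlda1 (ENSMUSG00000020205, chromosome 10, 110943342 to 110945705, plus strand) was at 15.8 and 79.5 CPM in mesoderm progenitors on days 3 and 4, at 2.70 CPM in 2i, at 3.35 CPM in 2iJ, at 3.30, 7.82 and 5.47 CPM in 2iJ+B-A on days 2, 5 and 11, and at 19.3 CPM in the sorted cells. The sorted library lay between the day 3 and the day 4 mesoderm libraries, and the R1 libraries with PD0325901 were all below. The log2 difference was 3.67 ± 0.67 (SE), with an adjusted p of 0.010. It was 4.45 without the day 3 mesoderm library (adjusted p = 0.0019) and 2.09 without the day 4 mesoderm library (adjusted p = 0.024).

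Etv4 and Etv5 encode ETS transcription factors of the PEA3 family, which act downstream of FGF and ERK, and they went in opposite directions. Etv4 (ENSMUSG00000017724, chromosome 11, 101631056 to 101646685, minus strand) was at 60.6 and 27.0 CPM in mesoderm progenitors on days 3 and 4, at 7.99 CPM in 2i, at 1.32 CPM in 2iJ, at 0.815, 6.49 and 10.2 CPM in 2iJ+B-A on days 2, 5 and 11, and at 7.32 CPM in the sorted cells. Both mesoderm libraries were above all others, and 2iJ and day 2 of 2iJ+B-A were the lowest. Etv4 had a log2 difference of 3.43 ± 0.85 (SE), with an adjusted p of 0.027. It did not pass without the day 3 mesoderm library (log2 difference 2.80, adjusted p = 0.070) or without day 5 of 2iJ+B-A (adjusted p = 0.053).

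Etv5 (ENSMUSG00000013089, chromosome 16, 22381382 to 22439792, minus strand) was at 179 and 101 CPM in mesoderm progenitors on days 3 and 4, at 385 CPM in 2i, at 399 CPM in 2iJ, at 254, 383 and 489 CPM in 2iJ+B-A on days 2, 5 and 11, and at 170 CPM in the sorted cells. All 5 R1 libraries with PD0325901 were above both mesoderm libraries, and the sorted library lay between the mesoderm values. The means were 140 ± 54.9 CPM in mesoderm progenitors (SD, n = 2) and 382 ± 84.0 CPM in MEK-inhibited R1 cells (SD, n = 5). The log2 difference was -1.51 ± 0.34 (SE), with an adjusted p of 0.019. Without the day 4 mesoderm library it was -1.12 and did not pass (adjusted p = 0.072).

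Between genes, levels were compared as RPKM, the CPM divided by the exon length in kilobases. Per kilobase, Etv5 was the highest of the 10 genes in all 6 libraries with PD0325901, at 61.9 to 119 RPKM in R1 cells and 41.5 RPKM in the sorted cells. Spred2 was second in the 5 R1 libraries, at 10.9 to 16.3 RPKM. In mesoderm progenitors Spry2 and Dusp4 led, at 65.2 and 64.3 RPKM on day 3 and at 48.7 and 55.0 RPKM on day 4. The ratio of Etv5 to Etv4 per kilobase was 2.23 and 2.82 in mesoderm progenitors on days 3 and 4, 36.5 in 2i, 228 in 2iJ, 236, 44.7 and 36.5 in 2iJ+B-A on days 2, 5 and 11, and 17.6 in the sorted cells. Etv5 made up 17.3% and 14.3% of the summed CPM of the 10 genes in mesoderm progenitors, 73.9% to 79.0% in MEK-inhibited R1 cells and 43.7% in the sorted cells. The other 9 genes summed to 853 and 606 CPM in mesoderm progenitors, to 83.8 to 136 CPM in MEK-inhibited R1 cells and to 219 CPM in the sorted cells.

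**Figure D2:**
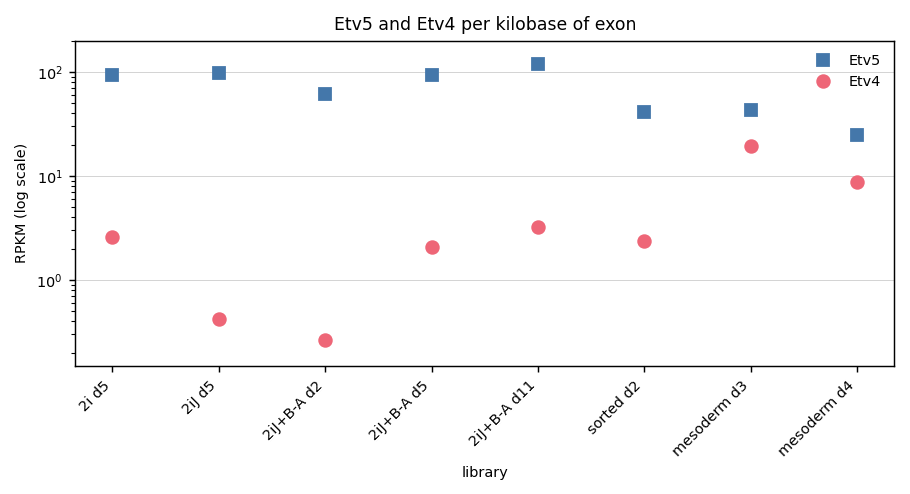
Levels of Etv5 (squares) and Etv4 (circles) in RPKM, on a log axis, are plotted for each of 8 libraries. The gap between both genes is smallest in the mesoderm progenitors, where the ratio is 2.23 and 2.82, and widest in 2iJ and on day 2 of 2iJ+B-A.

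Promoter sequence is shown for Dusp6 and Etv5, since these members lay on opposite sides of the comparison with mesoderm progenitors. RefSeq promoter entries (GRCm38.p6) were matched for 6 of the 10 genes, Dusp6, Spry1, Spry2, Spred1, Spred2 and Etv5, the last with 2 entries. The 250 bases before the annotated start are printed 5′ to 3′ on the strand of the gene, and capitals mark the CCAAT box, read on either strand. The position of the Dusp6 stretch is chr10:99262981-99263230 (plus strand), and that of the first Etv5 entry is chr16:22439571-22439820 (minus strand).
Dusp6: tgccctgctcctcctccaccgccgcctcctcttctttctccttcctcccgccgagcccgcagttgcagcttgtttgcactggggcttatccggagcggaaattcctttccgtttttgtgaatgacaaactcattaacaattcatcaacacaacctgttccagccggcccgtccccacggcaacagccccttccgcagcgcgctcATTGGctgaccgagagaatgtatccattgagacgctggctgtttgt
Etv5: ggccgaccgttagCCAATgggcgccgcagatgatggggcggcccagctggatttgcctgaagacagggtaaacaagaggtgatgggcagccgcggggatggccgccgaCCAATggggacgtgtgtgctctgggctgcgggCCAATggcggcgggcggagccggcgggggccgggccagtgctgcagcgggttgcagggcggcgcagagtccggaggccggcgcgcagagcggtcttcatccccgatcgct
The Dusp6 stretch held 1 CCAAT box and the printed Etv5 stretch 3. The second Etv5 entry held 1, as did Spry1, and Spry2, Spred1 and Spred2 held 0. Of 32851 promoters of the same length, 33.8% held at least 1 and 2.79% held 3 or more. The CCAAT box was searched after the sequences had been seen. None of the 7 entries held the ETS motif CCGGAA, which was in 12.0% of all promoters, the AP-1 motif TGACTCA (4.46%), the STAT motif TTCNNNGAA (7.02%) or the CArG box of SRF (1.47%), each searched on both strands. The half-site TGACG of the cAMP response element, in 17.8% of promoters, was found once, in Spred2. These matches describe the letters in this window only.

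Against 2iJ+B-A alone, the pair of groups with more than 1 library each, 7 of the 10 feedback genes were higher in mesoderm progenitors and Etv5 was lower (11.5% and 15.5% of all genes tested). This comparison shares its mesoderm libraries and 3 of its 5 R1 libraries with the one above. Spred2 was called here, at a log2 difference of 0.59 ± 0.17 (SE) and an adjusted p of 0.0495, and the call was lost without the day 3 mesoderm library (0.12) and without any single 2iJ+B-A library (0.11 to 0.12). Spry4 and Etv4 were not called, at log2 differences of 2.52 ± 1.02 and 2.92 ± 0.89 (SE) and adjusted p values of 0.12 and 0.054. DESeq2 called both (adjusted p of 0.027 and 0.0020), and in edgeR Etv4 passed without day 2 of 2iJ+B-A (adjusted p = 0.037), without the filter on low counts (0.026) and with unstranded counts (0.046). Dusp6, at 3.86 ± 0.69 (SE), was at 2.28 without the day 3 mesoderm library (adjusted p = 0.014). The call of Etv5, at -1.42 ± 0.35 (SE), was lost without the day 4 mesoderm library or without day 5 or day 11 of 2iJ+B-A (adjusted p of 0.10, 0.084 and 0.071), and that of Phlda1, at 3.13 ± 0.69 (SE), without the day 4 mesoderm library (log2 difference 1.57, adjusted p of 0.068) or without day 2, 5 or 11 of 2iJ+B-A (0.071, 0.056 and 0.061).

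**Figure D3:**
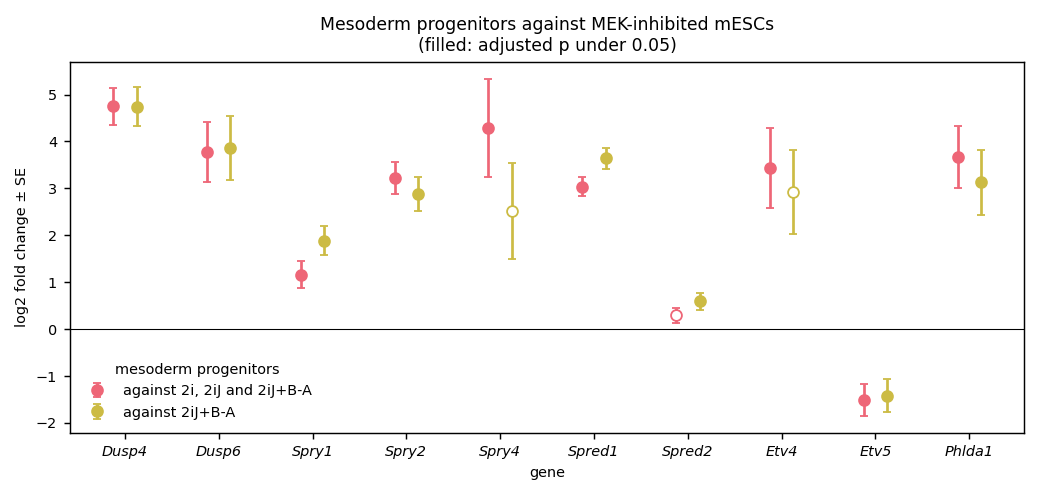
The log2 fold change of each ERK feedback gene in mesoderm progenitors (2 libraries) is plotted against the average of 2i, 2iJ and 2iJ+B-A (5 libraries, red) and against 2iJ+B-A (3 libraries, yellow), with bars of 1 SE and filled points where the adjusted p from edgeR was under 0.05. Etv5 is the 1 gene below 0 in both, and Spred2 lies nearest to 0.

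The 2 mesoderm libraries differed from each other in 4 of the 10 genes by at least 2-fold. Each is a single library, so no test was made, and intervals cover counting error. Dusp6, Spry4 and Etv4 were 5.27-, 3.04- and 2.24-fold lower on day 4, as 14.0% of all genes were by at least 2-fold, and Phlda1 was 5.03-fold higher, as 10.5% of all genes were by at least 2-fold. The 95% intervals of the log2 ratios of day 4 to day 3 ran from -2.50 to -2.30 for Dusp6, from -1.76 to -1.45 for Spry4, from -1.28 to -1.05 for Etv4 and from 2.19 to 2.47 for Phlda1. Dusp4, with a log2 ratio of -0.23, and Spry2, with -0.42, changed by less than 2-fold. Of the FGF ligands, Fgf8 was at 54.3 and 7.17 CPM on these days and Fgf5 at 38.8 and 0.937 CPM, whereas the receptor gene Fgfr3 was at 3.08 and 54.3 CPM. The part of these genes in the levels of the feedback genes was not tested.

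With the MEK inhibitor present throughout, adding the JAK inhibitor to 2i went with at least 2-fold differences in 4 of the 10 genes, again between single libraries. Dusp4 was 2.42-fold higher in 2iJ than in 2i (6.15% of all genes were at least 2-fold higher). Spry2, Spry4 and Etv4 were 2.15-, 3.52- and 5.97-fold lower (3.15% of all genes were at least 2-fold lower). The log2 intervals for Dusp4, from 0.94 to 1.63, Spry4, from -3.03 to -0.84, and Spry2, from -1.36 to -0.86, include a 2-fold change, and that for Etv4, from -3.16 to -2.07, does not. Etv5 differed by a log2 ratio of 0.05.

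None of the 10 genes passed the test between 2iJ+B-A and 2iJ, nor did any of the 16961 genes (0.0%) by edgeR. At an unadjusted p under 0.05 there were 2 of the 10, Spry1 and Spred2, against 7.61% of all genes, and DESeq2 called 0 of the 10 and 305 (1.8%) of all genes. In 2iJ Spry1 was at 7.82 CPM, and the mean of the 2iJ+B-A libraries was 3.15 ± 0.37 CPM (SD, n = 3). The log2 difference of Spry1 was -1.38 ± 0.37 (SE) with an adjusted p of 0.49. Spry4 and Etv4 were at log2 differences of 3.59 ± 1.74 and 2.07 ± 1.32 (SE), with adjusted p values of 0.73 and 0.82. On the matched day 5, Spry4 was 9.92-fold, Etv4 4.84-fold, Spry2 2.78-fold and Phlda1 2.33-fold higher with BMP4 and the ALK5 inhibitor, and Spry1 was 2.23-fold lower, between single libraries. Of all genes, 13.9% were at least 2-fold higher and 7.41% at least 2-fold lower on that day. Between the same libraries the summed trophectoderm markers went from 108 to 1196 CPM and the endoderm markers from 6.15 to 24.8 CPM. Of the trophectoderm markers, Krt8 went from 16.2 to 594 CPM, Krt18 from 13.2 to 448 CPM and Cdx2 from 4.13 to 30.1 CPM. The part of these markers in the ratios of the feedback genes was not tested.

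Over days 2, 5 and 11 of 2iJ+B-A, Spry4 went from 0.571 through 4.04 to 10.3 CPM and Etv4 from 0.815 through 6.49 to 10.2 CPM. Both were lowest on day 2 and highest on day 11, 17.4-fold and 12.2-fold apart, and 5 of the 10 genes (Dusp4, Dusp6, Spry2, Spry4 and Etv4) were at least 2-fold higher on day 11 than on day 2, against 10.8% of all genes. None was at least 2-fold lower (8.73% of all genes). A slope on the logarithm of the day was not called for any of the 10 by edgeR or for any of the 16961 genes (0.0%). The slope was 1.67 ± 0.41 (SE) per doubling of the day for Spry4 and 1.45 ± 0.40 for Etv4, with an adjusted p of 0.83 for both. At an unadjusted p under 0.05 there were 3 of the 10 (Dusp4, Spry4 and Etv4), against 5.92% of all genes. DESeq2 called 2 of the 10, Spry4 (adjusted p = 0.0094) and Etv4 (0.012), and 0.678% of all genes. In edgeR, leaving out the day 3 mesoderm library, the day 4 one or both left 1 residual degree of freedom, against 2 in the main fit. The common coefficient of variation between libraries was then 0.216, against 0.361 in the main fit. The slope of Spry4 was 1.64 without day 3 and 1.63 without day 4, and that of Etv4 1.41 and 1.39. Each of these fits left 1 mesoderm library, so only the slopes are given for them. Without both, Spry4, Etv4 and Etv5 passed in edgeR (0.011, 0.024 and 0.039), where 3.23% of all genes were called. Without day 2, 5 or 11 of 2iJ+B-A, 0 of all genes tested were called in edgeR. The 1 residual degree of freedom then came from the mesoderm libraries alone, so calls in these fits cannot decide on Spry4 and Etv4. Without day 2 the slope of Etv4 was 0.60 and that of Spry4 1.21, and without day 11 they were 2.20 and 2.07. Along the same days the summed endoderm markers went from 7.38 through 24.8 to 121 CPM. The summed mesoderm markers went from 14.2 through 30.5 to 58.7 CPM, but not as a set, and their median slope was -0.25. Pdgfra was at 6.36, 16.5 and 49.9 CPM and Kdr at 2.65, 8.14 and 5.66 CPM. Eomes was at 4.16, 4.04 and 2.57 CPM. T, Mesp1 and Mixl1 were below 1 CPM on each of these days, highest on day 5 and lowest on day 11, at levels limited by counting error. The part of these markers in the slopes of the feedback genes was not tested.

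**Figure D4:**
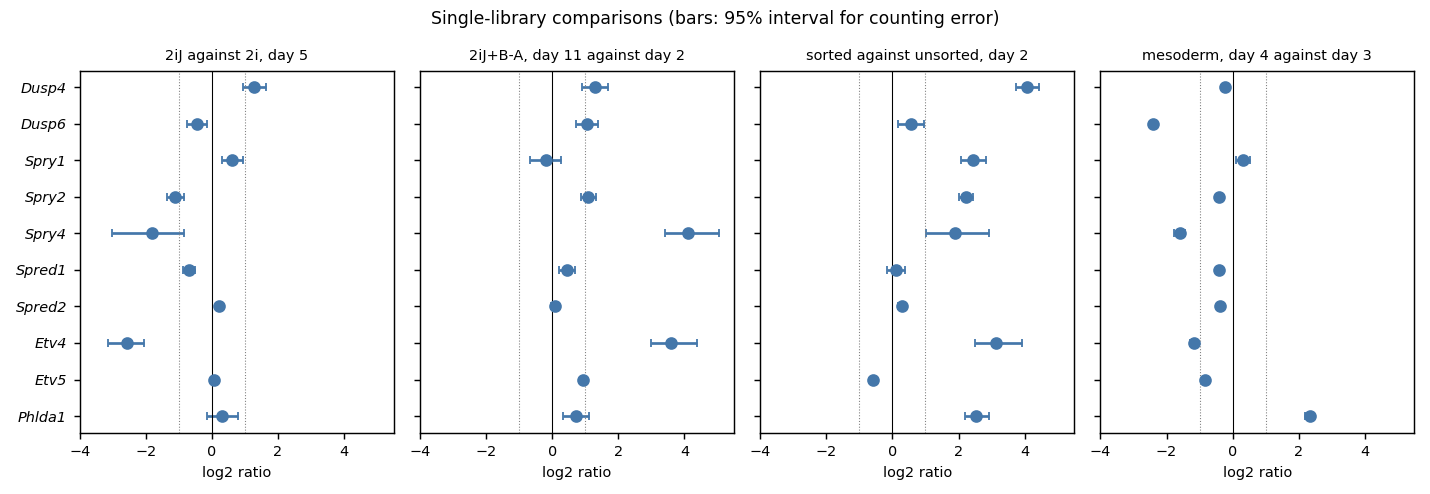
Log2 ratios between single libraries are plotted for the 10 genes in 4 comparisons (second library named is the reference; bars, 95% interval for counting error; dotted lines, 2-fold). Spry4 and Etv4 are below 0 for 2iJ against 2i, above 0 for 2iJ+B-A day 11 against day 2 and for sorted against unsorted cells, and below 0 for mesoderm day 4 against day 3.

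In the sorted Cdx2-GFP-positive cells, Dusp4 and Spry1 were higher than in 2iJ+B-A, 2 of the 10 genes, where 3.34% of all genes were higher and 2.08% lower. The log2 differences were 3.13 ± 0.44 (SE, adjusted p = 0.022) for Dusp4 and 2.51 ± 0.36 (SE, adjusted p = 0.024) for Spry1. The call of Dusp4 was lost without day 5 or day 11 of 2iJ+B-A (adjusted p of 0.088 and 0.063), and that of Spry1 without day 2, 5 or 11 (0.073, 0.12 and 0.089). In a fit with the slope on day, which compares the sorted cells with 2iJ+B-A at day 2, neither passed (0.062 and 0.11). Spry2 was at 1.44 ± 0.42 (SE) with an adjusted p of 0.095 (0.026 in DESeq2), and Phlda1 at 1.86 ± 0.80 (SE) with an adjusted p of 0.20, which was 0.044 without the day 3 mesoderm library. Etv5 was at -1.09 ± 0.45 (SE) with an adjusted p of 0.18.

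Against the unsorted library of the same day, 6 of the 10 genes were at least 2-fold higher in the sorted library, as 17.5% of all genes were, and 0 were at least 2-fold lower (18.8% of all genes). The ratio was 16.9-fold for Dusp4, 8.79-fold for Etv4, 5.83-fold for Phlda1, 5.42-fold for Spry1, 4.69-fold for Spry2 and 3.72-fold for Spry4. Dusp6, at 1.49-fold, and Spred1, at 1.08-fold, were not among them. The sorted library is 1 library of another line, so line and sort cannot be told apart. All 4 of the 4 fibroblast markers were detected in it, with a summed level of 91.1 CPM against 3.27 to 8.58 CPM in MEK-inhibited R1 cells, and Col1a1 and Col3a1 were called higher. Its 6 trophectoderm markers summed to 3813 CPM against 507 to 1196 CPM in 2iJ+B-A. Most of that sum was Krt8, at 1731 CPM, and Krt18, at 1595 CPM. Krt18 and Cdx2, whose reporter was used for the sort, were called higher, and the other 4 were not called. Marker RNA in a bulk library does not show which cells held it. The part of these marker differences and of the unmapped share in the levels of Dusp4 and Spry1 was not tested.

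Other genes of the pathway were read from lists of related feedback genes, ERK-responsive genes, FGF ligands and receptors and parts of the cascade. In the comparison of mesoderm progenitors with MEK-inhibited R1 cells, 15.7% of all genes tested were higher and 16.4% lower. Of 9 related feedback genes tested, 4 were higher in mesoderm progenitors than in MEK-inhibited R1 cells and 0 lower at an adjusted p under 0.05 in edgeR, with a median log2 difference of 1.31. They were Dusp2 (3.43 ± 0.60, SE), Spred3 (3.40 ± 0.37), the FGF antagonist Il17rd (2.00 ± 0.31) and the ERK phosphatase Dusp7 (1.31 ± 0.23). Of 13 ERK-responsive genes, 5 were higher and 1 lower, with a median of 0.57. The higher ones included the immediate early genes Egr2 (4.85 ± 0.56), Egr1 (2.72 ± 0.56) and Junb (2.58 ± 0.43). The lower one was Epha4 (-1.07 ± 0.28). Of the 7 not called, Fosl1 (0.84), Fos (0.57), Ccnd1 (0.39) and Ier2 (0.20) were above 0. Ier3 (-1.11), Fosb (-1.12) and Epha2 (-1.83) were below 0. Egr3 had the largest difference of the list (5.53 ± 0.98), at a mean of 0.894 CPM in mesoderm progenitors, below the 1 CPM set for naming genes, and is added here after its values were seen. In the sorted cells, Fos was the 1 gene of this list called, at 2.60 ± 0.52 (SE) above 2iJ+B-A with an adjusted p of 0.044.

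Of 10 FGF ligands and receptors, 6 were higher in mesoderm progenitors and 1 lower (15.7% and 16.4% of all genes), with a median log2 difference of 3.05. Fgf8 was at 6.13 ± 0.95 (SE), Fgf5 at 5.71 ± 1.46 and Fgfr3 at 5.08 ± 1.14. Fgf4, the ligand made by mESCs, was at 21.9 and 3.00 CPM in mesoderm progenitors and at 159 to 291 CPM in the 5 MEK-inhibited R1 libraries, a log2 difference of -4.29 ± 0.81 (SE) with an adjusted p of 0.011. Of 20 genes of the cascade itself, 9 were higher and 2 lower, beside the same shares of all genes, with a median of 0.44. Mapk3, which encodes ERK1, was at 1.73 ± 0.37 (SE) and the adaptor gene Gab1 at -2.10 ± 0.17 (SE).

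The 5 genes whose log2 level followed that of Dusp6 most closely over the 8 libraries, among 10116 genes of sufficient level, were Nxn (Pearson r = 0.99), Exoc5, Ptpn1, A130022J15Rik and Atl2 (r of 0.97 each). The 8 points share libraries and cell types, so the values are a description. Nxn was at 63.9 and 39.9 CPM in mesoderm progenitors on days 3 and 4 and at 19.2 to 26.7 CPM in the libraries with PD0325901, a smaller range than that of Dusp6 with the same order of the 2 mesoderm libraries above the rest.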

How the data were processed

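Poly-A RNA of 8 libraries was sequenced as strand-specific read pairs. The authors trimmed reads at a Phred score of 20, aligned them to NCBIM37 with STAR 2.4.2a and deposited raw counts per gene, unstranded and for each strand. The annotation release they used is not given in the sources used here. The sense-strand counts were used, and rows that name no gene were left out of totals. They held 54.5% of read pairs in the sorted library and 19.9% to 26.1% in the others. Symbols, exon lengths and coordinates came from GENCODE vM1. The 16961 genes that reached 10 counts in 2 or more libraries were fitted together with TMM scaling in edgeR 4.0.16 (R 4.3.3) with 5 groups. Quasi-likelihood tests were adjusted by Benjamini-Hochberg over these genes. Residual spread came from the 2iJ+B-A and mesoderm libraries, whose days served as replicates, so p-values include change over time, and the labels do not say that they were separate cultures. Single libraries were compared as CPM with a pseudocount of 0.5 counts and exact binomial intervals. DESeq2 1.42.0 and other settings were alternatives. The fits were tested on simulated data, with changed genes drawn from those not of low count. Of 100 genes changed 4-fold, 74% were recovered for mesoderm progenitors against MEK-inhibited R1 cells and 62% against 2iJ+B-A. Recovery was 44% for 2iJ+B-A against 2iJ and 45% for sorted cells against 2iJ+B-A. Slopes of 2-fold per doubling of the day were recovered for 58%. The members and lists were chosen with earlier results of these data known. All members are named, and up to 4 called genes of each other pathway list with a mean of at least 1 CPM, by size of change. Egr3, Epha4 and the uncalled genes of the ERK-responsive list were added after their values were seen. The 5 genes most like Dusp6 reached 10 CPM in 2 or more libraries.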

Additional observations from a re-analysis of the deposited data

Results flagged for a closer look

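In the sorted library 29.7% of read pairs were unmapped, against 2.17% to 3.85% in the other 7 libraries. The share was taken from rows that no comparison uses, and there is 1 sorted library. Dusp4 and Spry1, called higher in that library than in 2iJ+B-A, rest on it, and the part of the unmapped share in their levels was not tested.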

How the results depend on the processing

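Dusp4, Dusp6, Spry2, Spred1 and Phlda1 passed the comparison of mesoderm progenitors with MEK-inhibited R1 cells under all 11 alternatives. The count of genes called there was 5437, and 3584 (without day 5 of 2iJ+B-A) to 5230 when each mesoderm and 2iJ+B-A library was left out in turn. The 2i, 2iJ and sorted groups, of 1 library each, were not left out. Against 2iJ+B-A it was 4584, and 2019 to 4538, with the lowest counts without day 5 (2019) and day 11 (2666) of 2iJ+B-A. Between 2iJ+B-A and 2iJ, 0 became 305 with DESeq2 and 150 with 2i and 2iJ pooled as the reference. For the sorted cells, 919 became 1390 without the filter on low counts, 2697 with DESeq2 and 27 with the slope fitted. Leaving out libraries gave 37 to 2052, with 91, 37 and 117 without day 2, 5 or 11 of 2iJ+B-A and 1987 and 2052 without the day 3 or day 4 mesoderm library. For the slope, 0 became 2 without the filter, 115 with DESeq2 and 531 without the mesoderm libraries, and leaving out libraries gave 0 to 469, with 379 and 469 without the day 3 or day 4 mesoderm library. The cause was not tested.

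Log2 values of genes that were not called changed sign as follows. Between 2iJ+B-A and 2iJ, Dusp6 was at -0.15 with 2i and 2iJ pooled, and leaving out libraries gave -0.14 (without day 11) to 0.33 for Dusp6 and -0.40 to 0.054 (without day 2) for Etv5. In the sorted cells, Dusp6 was at 0.031 with unstranded counts, and at day 2 Dusp6, Spred1 and Spry4 were at 0.53, 0.15 and 1.71. Leaving out libraries there gave -0.29 to 0.18 (without day 11) for Dusp6, -0.17 to 0.041 (without day 11) for Spred1 and -0.13 (without day 2) to 1.07 for Etv4. For the slope it gave -0.032 to 0.97 for Dusp4, -0.047 to 0.83 for Spry2, -0.11 to 0.12 for Spred2 and -0.43 to 0.88 for Phlda1, each lowest without day 2, and -0.27 to 0.045 (without day 11) for Spry1. No paired analysis was possible because the labels number no replicates, the numbers used here follow the order of the samples, and no groups compared share more than 1 day. Groups of 1 library were assumed to vary like the others, and at 10 to 14 counts the lowest Spry4 levels were limited by depth.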
